A study of Mus musculus with 15 samples.

Results

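The 8 mast cell genes Cpa3, Mcpt4, Cma1, Tpsb2, Tpsab1, Ms4a2, Hdc and Kit were followed in bulk RNA of mouse perigonadal fat, the fat pad beside the gonads. The members were chosen by name, as the lines of the deposited count table whose Entrez ID maps to these symbols, and all 8 were found among 35794 Entrez IDs. Of the 8, 7 passed a filter on low counts that kept 15208 genes. Weight loss mice (4 libraries used) ate a 60% high fat diet for 5 weeks from 8 weeks of age and then returned to chow for 1 week. Obese mice (5 libraries) started the same 60% high fat diet at 8 weeks of age, and the labels do not say what they ate in the last week. Lean mice (5 libraries) were kept on chow. All mice were C57BL/6 and 14 weeks old, and their sex is not given. The series describes its samples as independent, but the labels do not tie each library to 1 mouse, so the p-values measure the spread between these libraries, which may be partly technical.

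Mast cells are tissue-resident immune cells that store proteases, histamine and other mediators in granules and release them when activated, classically when antigen meets IgE held on the high-affinity IgE receptor. The proteases are chymases, tryptases and a carboxypeptidase, packed onto the proteoglycan serglycin. In mice, Cpa3, Mcpt4, Cma1 and Tpsb2 are typical of connective tissue mast cells, whereas Mcpt1 and Mcpt2 are typical of mucosal mast cells. White fat contains resident mast cells, and the growth factor receptor Kit is needed for their survival in tissues.

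The transcription factors GATA2, MITF and RUNX1 act in mast cells, and the stretches just before the start sites of Cpa3, Mcpt4, Cma1 and Ms4a2 are shown because they hold matches to the GATA letters. The sequences are from RefSeq promoters of GRCm38.p6, on the strand of each gene, which is the minus strand for all of these. They cover chr3:20242210-20242431 for Cpa3, chr14:56062311-56062560 for Mcpt4, chr14:55944676-55944925 for Cma1 and chr19:11623791-11623969 for Ms4a2, and bases inside the annotated gene are left off. Capitals mark matches on either strand to GATAA (reverse TTATC), its longer form AGATAA, and TGTGGT (reverse ACCACA), a RUNX motif.
Cpa3: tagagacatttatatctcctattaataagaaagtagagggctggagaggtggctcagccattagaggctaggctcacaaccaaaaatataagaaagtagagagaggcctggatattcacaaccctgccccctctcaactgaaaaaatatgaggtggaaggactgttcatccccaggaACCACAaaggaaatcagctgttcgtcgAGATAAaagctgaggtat
Mcpt4: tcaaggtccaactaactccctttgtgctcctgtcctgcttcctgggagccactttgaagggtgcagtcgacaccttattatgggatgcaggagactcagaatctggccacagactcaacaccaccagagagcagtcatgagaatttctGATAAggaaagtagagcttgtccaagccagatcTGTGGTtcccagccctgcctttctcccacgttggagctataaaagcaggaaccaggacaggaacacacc
Cma1: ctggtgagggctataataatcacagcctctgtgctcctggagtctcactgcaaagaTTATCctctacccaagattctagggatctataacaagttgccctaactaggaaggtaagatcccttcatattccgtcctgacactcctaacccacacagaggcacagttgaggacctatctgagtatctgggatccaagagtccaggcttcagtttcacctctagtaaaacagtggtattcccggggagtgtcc
Ms4a2: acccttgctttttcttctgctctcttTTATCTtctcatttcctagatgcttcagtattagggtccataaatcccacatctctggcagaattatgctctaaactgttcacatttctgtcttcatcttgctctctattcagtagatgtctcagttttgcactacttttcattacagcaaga
Promoter windows of 250 bases before to 50 after the start were found for 6 members, and none was found for Tpsb2 and Tpsab1. Only the 250 bases before the start were searched, in the windows of members and in all windows alike. GATAA occurred in 4 of the 6 windows, those of Cpa3, Mcpt4, Cma1 and Ms4a2, against 22.6% of 32851 windows of the same length. AGATAA, which contains GATAA, occurred in 2 of the 6, Cpa3 and Ms4a2, against 9.99% of all windows. TGTGGT occurred in 2 of the 6, Cpa3 and Mcpt4, against 14.0% of all windows. The E-box letters CATGTG, whose reverse is CACATG, and CACGTG, the same on both strands, were in 0 of the 6 windows, against 12.3% and 6.02% of all windows. The Hdc window has its start site at chr2:126618678, inside the annotated gene, so its lack of matches does not describe the bases before that gene. The start sites used for Cpa3 (chr3:20242181) and Ms4a2 (chr19:11623719) also lie inside the annotated gene, so the stretches shown end short of them. Of the Ms4a2 matches to GATAA, those at 37 to 33 and 10 to 6 bases before the start lie inside the gene and are not shown. These counts describe letters in a short window and say nothing of binding.

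The genes lie on 6 chromosomes (mm10, which is GRCm38). Cpa3 spans chr3:20215616-20242209, Mcpt4 chr14:56059744-56062310, Cma1 chr14:55941451-55944675 and Tpsb2 chr17:25366308-25368096. Tpsab1 spans chr17:25343245-25345562, Ms4a2 chr19:11615517-11623790, Hdc chr2:126593659-126624025 and Kit chr5:75574987-75656722. Members of a protease family can share reads, and the counting tool is not given in the sources used here. The longest GENCODE transcripts of Tpsb2 and Tpsab1 were 81.5% identical over 401 aligned bases, with a longest shared run of 23 bases. Those of Cma1 and Mcpt4 were 73.1% identical over 651 bases, with a longest shared run of 27 bases. In neither pair did any stretch of 50 bases occur in both transcripts.

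The 14 libraries used held 13924770 to 33807887 counts, and a further weight loss library, replicate 5, had only 230 counts and is not used. Genes of the epididymis, the duct beside the male fat pad, differed widely between libraries. The 12 listed epididymis genes summed to 0.790 to 62.9 CPM (counts per 1000000 counts of the library) in weight loss, 8.97 to 8010 CPM in obese and 1.58 to 3300 CPM in lean libraries. Obese replicates 2, 4 and 5 and lean replicate 1 were the richest in them. Values without these 4 libraries stand beside the comparison of obese with lean mice.

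Per kilobase of exon, the chymase genes were the highest of the 8 members. Over the 14 libraries, the mean level was 15.7 CPM per kilobase for Cma1, 14.8 for Mcpt4, 8.90 for Tpsb2, 5.06 for Cpa3, 2.02 for Hdc, 1.69 for Kit, 0.321 for Tpsab1 and 0 for Ms4a2. The order was the same in every library for Mcpt4 over Tpsb2, Tpsb2 over Cpa3, Kit over Tpsab1 and Tpsab1 over Ms4a2. Cpa3 was above Hdc in 12 of 14 libraries. Cma1 was above Mcpt4 in 9 of 14 and Hdc above Kit in 8 of 14, so neither of these neighbours could be ordered beyond the spread between libraries.

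**Figure D1:**
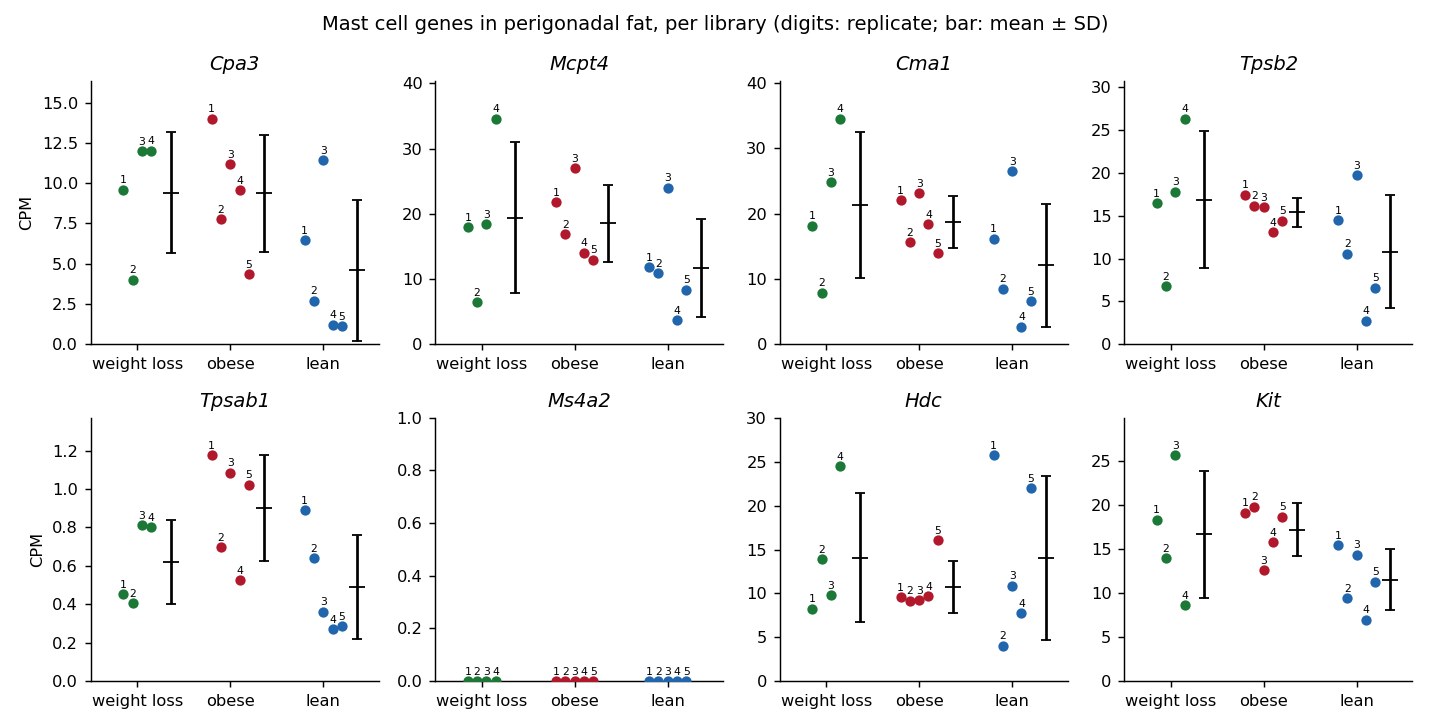
Level of each of the 8 mast cell genes in CPM (vertical axis, from 0) in each weight loss, obese and lean library. Points are libraries with their replicate number, bars are mean ± SD, and Ms4a2 is at 0 in all 14. Cpa3, Mcpt4, Cma1 and Tpsb2 spread widely in lean libraries, lean replicate 3 is the highest lean library for each, and Mcpt4, Cma1 and Tpsb2 have their narrowest spread in obese libraries.

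Cpa3 encodes carboxypeptidase A3, an exopeptidase of the mast cell granule. Cpa3 was at 9.60, 4.02, 12.0 and 12.0 CPM in weight loss replicates 1 to 4, at 14.0, 7.78, 11.2, 9.58 and 4.34 CPM in obese replicates 1 to 5, and at 6.47, 2.70, 11.4, 1.21 and 1.13 CPM in lean replicates 1 to 5. Lean replicate 3 was within the obese range, 3 of the 5 lean libraries were below every obese one, and the groups overlapped. Cpa3 averaged 9.40 ± 3.8 CPM in weight loss (SD, n = 4), 9.38 ± 3.6 CPM in obese (SD, n = 5) and 4.59 ± 4.4 CPM in lean libraries (SD, n = 5).

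Mcpt4 and Cma1 lie in the chymase cluster of chromosome 14 and encode granule chymases of connective tissue mast cells. Mcpt4 was at 18.0, 6.46, 18.4 and 34.6 CPM in weight loss replicates 1 to 4, at 21.8, 16.9, 27.0, 14.0 and 12.9 CPM in obese replicates 1 to 5, and at 11.8, 10.9, 24.0, 3.69 and 8.37 CPM in lean replicates 1 to 5. All lean libraries but replicate 3 were below every obese library. Cma1 was at 18.2, 7.88, 24.8 and 34.6 CPM in weight loss replicates 1 to 4, at 22.1, 15.7, 23.2, 18.4 and 14.0 CPM in obese replicates 1 to 5, and at 16.2, 8.51, 26.5, 2.68 and 6.60 CPM in lean replicates 1 to 5. For both genes the highest lean library was replicate 3 and the lowest was replicate 4. Mcpt4 averaged 19.4 ± 12, 18.5 ± 5.9 and 11.8 ± 7.5 CPM in weight loss, obese and lean libraries (SD, n = 4, 5 and 5), and Cma1 averaged 21.4 ± 11, 18.7 ± 4.0 and 12.1 ± 9.4 CPM.

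Tpsb2 encodes the main tryptase of these cells, a trypsin-like granule protease. Tpsb2 was at 16.5, 6.81, 17.8 and 26.3 CPM in weight loss replicates 1 to 4, at 17.4, 16.2, 16.0, 13.1 and 14.4 CPM in obese replicates 1 to 5, and at 14.5, 10.6, 19.7, 2.75 and 6.60 CPM in lean replicates 1 to 5. The obese libraries lay within 1.33-fold of each other, the lean ones within 7.17-fold. Its neighbour Tpsab1 encodes a second tryptase, and C57BL/6 mice are known to lack that protein. RefSeq calls Tpsab1 a transcribed pseudogene on this reference strain, while GENCODE M21 calls it protein coding. Tpsab1 rested on 4 to 28.8 deposited counts per library. Tpsab1 was at 0.452, 0.407, 0.814 and 0.801 CPM in weight loss replicates 1 to 4, at 1.18, 0.696, 1.08, 0.524 and 1.02 CPM in obese replicates 1 to 5, and at 0.892, 0.639, 0.362, 0.268 and 0.284 CPM in lean replicates 1 to 5. For both tryptase genes the groups overlapped.

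Ms4a2 encodes the beta chain of the high-affinity IgE receptor, which amplifies its signal. Ms4a2 was listed at 0 in all 14 libraries, and because the annotation used for counting is not given, a gene without transcripts in the tissue and a gene that received no reads in the counting cannot be told apart. A floor of 3 counts corresponds to 0.087 to 0.213 CPM in these libraries, covering counting error only. Of 20 Ms4a family genes in the table, 16 had counts in at least 1 library, and 43.9% of all Entrez IDs were at 0 throughout. Fcer1a, which encodes the IgE-binding alpha chain, was at 0 to 1.28 CPM in weight loss, 0.282 to 1.30 CPM in obese and 0 to 0.178 CPM in lean libraries, and it did not pass the filter. Its lean values lie below the highest floor, but the floor was 0.134 CPM in lean replicate 1. Not every lean value is thus shown to be below the floor of its own library, and Fcer1a was not tested.

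Hdc encodes histidine decarboxylase, the enzyme that makes histamine, and is also expressed by basophils and other myeloid cells. Hdc was at 8.24, 13.9, 9.76 and 24.5 CPM in weight loss replicates 1 to 4, at 9.56, 9.17, 9.22, 9.69 and 16.1 CPM in obese replicates 1 to 5, and at 25.8, 4.04, 10.9, 7.71 and 22.0 CPM in lean replicates 1 to 5. The highest lean libraries for Hdc were replicates 1 and 5, whereas replicate 3 was the highest for the 4 abundant proteases.

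Kit encodes the receptor tyrosine kinase for stem cell factor and is also expressed by melanocytes, blood progenitors and some innate lymphoid cells. Kit was at 18.4, 14.0, 25.7 and 8.65 CPM in weight loss replicates 1 to 4, at 19.2, 19.8, 12.6, 15.8 and 18.7 CPM in obese replicates 1 to 5, and at 15.4, 9.44, 14.4, 6.97 and 11.3 CPM in lean replicates 1 to 5. Weight loss replicate 4 was the highest of its group for Cpa3, Mcpt4, Cma1, Tpsb2 and Hdc, and the lowest of its group for Kit. Its lead for Cpa3 was slight, at 12.02 CPM against 11.98 CPM in replicate 3. The obese and lean ranges of Kit overlapped between 12.6 and 15.4 CPM.

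Obese mice were compared with lean mice to ask how the mast cell genes stood after high fat feeding. In obese fat the 4 abundant proteases and Kit averaged 1.42-fold to 2.02-fold the lean level, but none of the 8 members passed the test. With edgeR's quasi-likelihood test and Benjamini-Hochberg adjustment over all genes, 0 of the 7 members tested were past an adjusted p of 0.05, against 9.71% of the 15208 genes. DESeq2 and limma-voom also called 0 members. At an unadjusted p under 0.05, 1 member, Kit, stood against 24.8% of all genes. The members' median log2 fold change was 0.62 and that of all genes tested was -0.02, with 6 of the 7 above 0 against 47.8% of all genes. In bulk fat, more or fewer mast cells and more or less RNA per cell cannot be told apart.

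Cpa3 had the largest difference of the members, with a log2 fold change of 1.01 ± 0.56 (SE, adjusted p = 0.292). The chymase genes had log2 fold changes of 0.65 ± 0.44 for Mcpt4 (SE, adjusted p = 0.406) and 0.62 ± 0.48 for Cma1 (SE, adjusted p = 0.477). The tryptase genes had 0.51 ± 0.41 for Tpsb2 (SE, adjusted p = 0.5) and 0.86 ± 0.44 for Tpsab1 (SE, adjusted p = 0.249). Kit had the smallest standard error, with a log2 fold change of 0.58 ± 0.27 (SE, adjusted p = 0.2). Hdc alone was below 0, at -0.39 ± 0.43 (SE, adjusted p = 0.638), and averaged 10.7 ± 3.0 CPM in obese and 14.1 ± 9.4 CPM in lean libraries (SD, n = 5 each).

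An exact two-sided permutation test of mean log2 CPM over the 252 arrangements of the libraries was run for each member, with 0.00794 the smallest p possible and no adjustment for the 21 such tests in all. Its p was 0.0317 for Kit, 0.0476 for Tpsab1, 0.0794 for Cpa3, 0.111 for Mcpt4, 0.143 for Cma1, 0.151 for Tpsb2 and 0.817 for Hdc. All 5 obese libraries were above the lean median for every member tested but Hdc, for which 1 of 5 was. The share of all genes with that pattern is not given, and members that vary together across libraries are not separate evidence. The groups overlapped for all 7 members, whereas 10.3% of all genes tested had no overlap.

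With each library left out in turn, the obese against lean log2 fold change of Cpa3 ran from 0.75 to 1.68, and the highest value was without lean replicate 3, the lean library with the most protease RNA. Without it the log2 fold changes were 1.68 for Cpa3 (adjusted p = 0.0556), 1.09 for Mcpt4 (adjusted p = 0.119), 1.13 for Cma1 (adjusted p = 0.13) and 0.84 for Tpsb2 (adjusted p = 0.215), and still 0 members were called. The exact permutation p without it was 0.0238 for Cpa3, 0.00794 for Mcpt4, the smallest possible, 0.0238 for Cma1, 0.0238 for Tpsb2 and 0.0873 for Tpsab1. Without lean replicate 4, the lean library with the least protease RNA, the log2 fold changes were instead 0.75 for Cpa3, 0.40 for Mcpt4, 0.34 for Cma1 and 0.24 for Tpsb2. The exact permutation p without lean replicate 4 was 0.143 for Cpa3, 0.222 for Mcpt4, 0.278 for Cma1, 0.317 for Tpsb2 and 0.111 for Tpsab1. Over single libraries left out, the exact permutation p of Tpsab1 ran from 0.0317 to 0.111 and was above 0.05 in 8 of 14 cases, those without obese replicates 1, 2, 3 or 5, weight loss replicate 4 or lean replicates 3, 4 or 5. Without any of obese replicates 1, 2, 4 and 5 or lean replicates 2, 4 and 5, the exact permutation p of Kit was 0.0556 to 0.0714. Leaving out the 4 libraries richest in epididymis genes kept 2 obese and 4 lean libraries, with log2 fold changes of 1.59 for Cpa3, 1.05 for Mcpt4, 1.02 for Cma1, 0.75 for Tpsb2, 1.53 for Tpsab1, -0.25 for Hdc and 0.60 for Kit and 0 members called. On the 2 obese and 4 lean libraries the permutation test has 15 arrangements and a smallest possible p of 0.0667, so it could not pass the threshold.

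**Figure D2:**
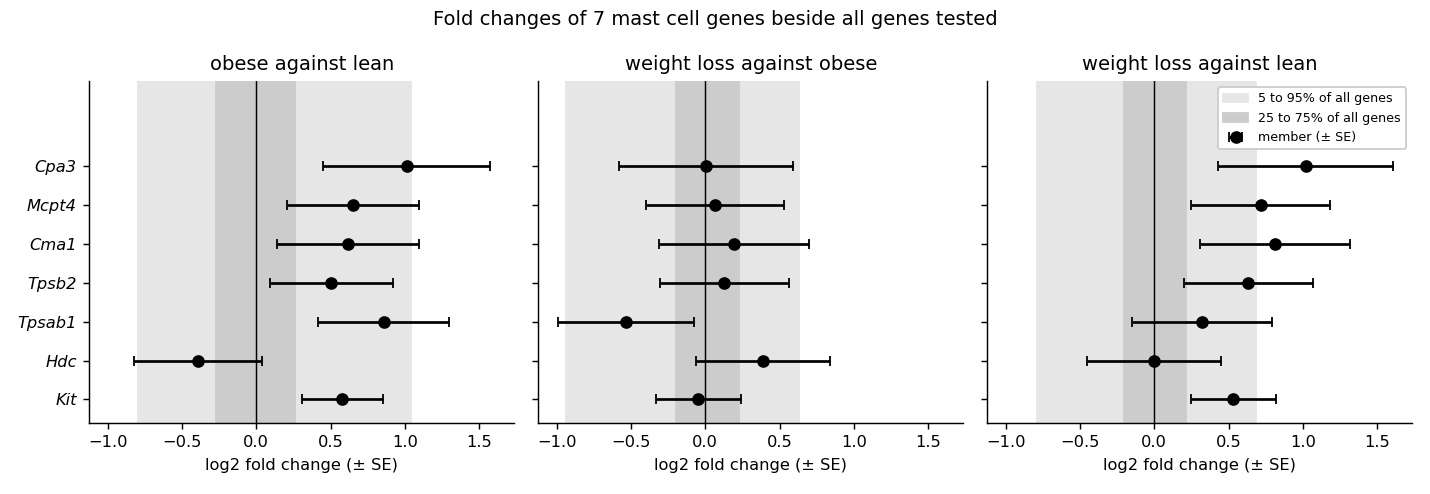
Log2 fold changes ± SE (horizontal axis) of the 7 tested mast cell genes in obese against lean, weight loss against obese and weight loss against lean libraries. Shaded bands hold the middle of the log2 fold changes of all 15208 genes. In obese against lean, Cpa3 stands at 1.01 and Hdc at -0.39, and in weight loss against obese most members lie near 0.

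Weight loss mice were compared with obese mice to ask whether the mast cell genes changed after 1 week back on chow. The 4 abundant proteases averaged close to the obese level after weight loss, and 0 of the 7 members passed edgeR's test, against 1.62% of all genes tested. At an unadjusted p under 0.05 there were also 0 members, against 14.3% of all genes, and DESeq2 and limma-voom called 0. The members' median log2 fold change was 0.07, and that of all genes was 0.02. The log2 fold change was 0.0060 ± 0.59 for Cpa3 (SE, adjusted p = 0.998), 0.07 ± 0.47 for Mcpt4 (SE, adjusted p = 0.972), 0.20 ± 0.50 for Cma1 (SE, adjusted p = 0.916) and 0.13 ± 0.43 for Tpsb2 (SE, adjusted p = 0.939). The approximate 95% interval of the log2 fold change ran from -1.14 to 1.15 for Cpa3 and from -0.72 to 0.98 for Tpsb2, so these libraries do not show that the levels were alike.

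Tpsab1 was the lowest member in this comparison, at a log2 fold change of -0.53 ± 0.46 (SE, adjusted p = 0.679), and averaged 0.618 ± 0.22 CPM in weight loss (SD, n = 4) and 0.901 ± 0.28 CPM in obese libraries (SD, n = 5). Hdc was the highest, at 0.39 ± 0.45 (SE, adjusted p = 0.776), with a mean of 14.1 ± 7.3 CPM in weight loss and 10.7 ± 3.0 CPM in obese libraries. Kit stood at -0.05 ± 0.29 (SE, adjusted p = 0.968). The exact permutation p over 126 arrangements was 0.167 to 0.944 for the 7 members. The direction was not stable to the epididymis-rich libraries: without those 4, the log2 fold change in weight loss against obese was -0.42 for Cpa3, -0.33 for Mcpt4 and -0.085 for Cma1, and with the summed epididymis level as a covariate it was -0.36 for Cpa3 and -0.23 for Mcpt4, none of them called. Without weight loss replicate 2, the library with the least protease RNA of its group, the permutation difference of Tpsb2 was 0.36 with p = 0.0357, against -0.02 with all libraries. All 7 members overlapped between these groups, and 6.65% of all genes did not.

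Weight loss mice were set against lean mice to ask whether the genes stood back at the lean level. Cpa3 averaged 2.03-fold and Cma1 1.76-fold the lean level, and 0 of the 7 members passed edgeR's test, against 0.0329% of all genes. At an unadjusted p under 0.05 there were 0 members, against 11.4% of all genes, and DESeq2 and limma-voom called 0. The members' median log2 fold change was 0.63, with 6 of 7 above 0, and that of all genes was 0.0033. This comparison shares its lean libraries with obese against lean and its weight loss libraries with weight loss against obese, so the values are not independent.

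Against lean mice, the log2 fold change after weight loss was 1.02 ± 0.59 for Cpa3 (SE, adjusted p = 0.536), 0.72 ± 0.47 for Mcpt4 (SE, adjusted p = 0.586) and 0.81 ± 0.51 for Cma1 (SE, adjusted p = 0.564). It was 0.63 ± 0.43 for Tpsb2 (SE, adjusted p = 0.6), 0.32 ± 0.47 for Tpsab1 (SE, adjusted p = 0.826) and 0.53 ± 0.29 for Kit (SE, adjusted p = 0.502). Hdc averaged 14.1 CPM in both groups, with a log2 fold change of -0.00075 ± 0.45 (SE, adjusted p = 0.999). With 1 library left out, the log2 fold change ran from 0.74 to 1.69 for Cpa3, 0.24 to 1.16 for Mcpt4, 0.44 to 1.32 for Cma1 and 0.30 to 0.97 for Tpsb2. The highest of each was without lean replicate 3, and the lowest was without lean replicate 4 for Cpa3 and without weight loss replicate 4 for Mcpt4, Cma1 and Tpsb2. The exact permutation p was 0.119 to 0.786. For Cpa3, Tpsab1 and no other member, all 4 weight loss libraries were above the lean median, a pattern whose share over all genes is not given. All 7 members overlapped between the groups, against 2.29% of genes that did not.

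By the ratio of highest to lowest, the 4 abundant proteases spread most among lean libraries. Among obese libraries that ratio was lowest for Tpsb2 and highest for Cpa3. Of the 4, only Tpsb2 had an obese SD of log2 CPM below the median of all genes. Summed over the 8 members, the level was 53.4 to 141 CPM in weight loss, 81.1 to 105 CPM in obese and 25.3 to 107 CPM in lean libraries. Among lean libraries the highest was 10.1-fold the lowest for Cpa3, 9.88-fold for Cma1, 7.17-fold for Tpsb2 and 6.51-fold for Mcpt4. Among weight loss libraries these ratios were 2.99 for Cpa3, 4.39 for Cma1, 3.87 for Tpsb2 and 5.36 for Mcpt4. Among obese libraries they were 3.23 for Cpa3, 1.66 for Cma1, 1.33 for Tpsb2 and 2.09 for Mcpt4. The SD of log2 CPM among lean libraries was 1.11 for Tpsb2, at the 88.1 percentile of all genes tested, and among obese libraries it was 0.16, at the 21.9 percentile. The obese SD was at the 86.5 percentile for Cpa3, 75.8 for Mcpt4 and 60.5 for Cma1, and the weight loss SD of Cpa3 was at the 83.1 percentile. Over all genes the median SD was 0.338 in weight loss, 0.261 in obese and 0.335 in lean libraries. The difference in spread between groups was not tested.

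**Figure D3:**
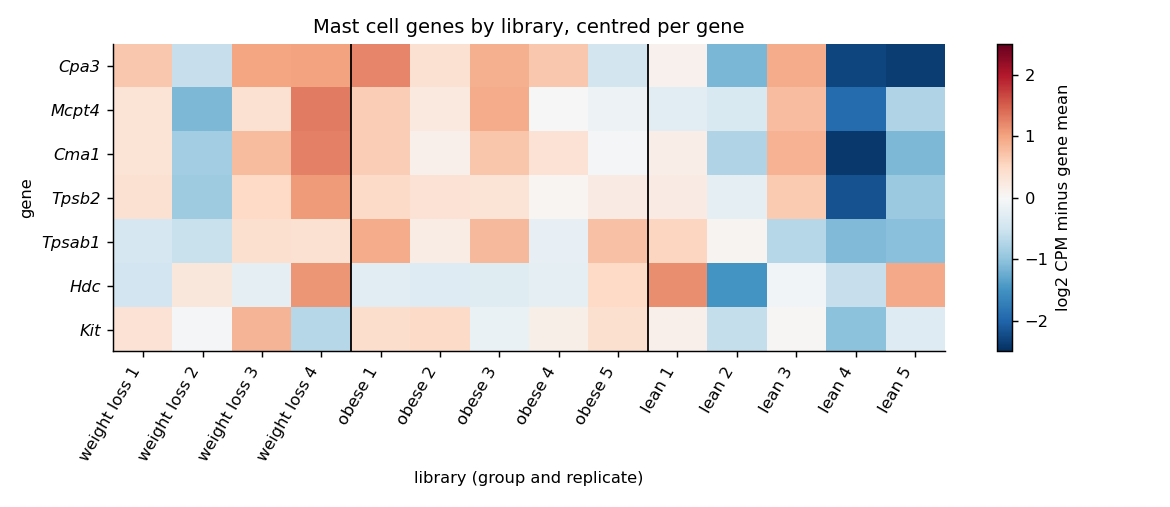
Log2 CPM of the 7 detected mast cell genes in each library, minus the mean of the gene over the 14 libraries (colour scale, log2 units). Columns are weight loss, obese and lean libraries. Cpa3, Mcpt4, Cma1 and Tpsb2 are high together in weight loss replicate 4 and lean replicate 3 and low together in weight loss replicate 2 and lean replicates 4 and 5, while Hdc follows another pattern.

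The 4 abundant proteases went up and down together across libraries, and Hdc and Kit did so less closely or not at all. Over the 14 libraries and 21 pairs of members, Pearson's r of log2 CPM was highest for Cma1 and Tpsb2, at 0.973 (Spearman's rho = 0.912, permutation p = 1e-05 for r, the smallest that these permutations can give, adjusted p = 5.25e-05 over the 21 pairs). The lowest of the 6 pairs among Cpa3, Mcpt4, Cma1 and Tpsb2 was Cpa3 with Mcpt4, at 0.86 (rho = 0.916, permutation p = 0.00019, adjusted p = 0.000665). Without the 2 libraries farthest from the median of 1 gene of the pair, the first in the order Cpa3, Mcpt4, Cma1, Tpsb2, these 6 pairs stood at 0.752 to 0.924. With each group's mean subtracted, the r pooled over the 14 libraries was 0.825 to 0.967, so the relation did not rest on differences between group means alone. Whether it held inside each single group was not tested.

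Tpsab1 correlated with these 4 genes at r = 0.61 to 0.664, with permutation p values of 0.00663 to 0.0197 and adjusted p values of 0.0199 to 0.0413. Spearman's rho for these pairs was 0.446 to 0.547, with adjusted permutation p values of 0.136 to 0.212. Without the 2 libraries farthest from the protease's median, r was 0.165 to 0.358, weaker than over all libraries. These libraries were picked by the protease alone, pair by pair, so the lower values do not tie the relation to 1 set of libraries. With each group's mean subtracted, r was 0.481 to 0.598. Kit correlated with the 4 proteases at r = 0.374 to 0.577, with adjusted permutation p values of 0.0576 to 0.265. Hdc correlated with them at r = 0.0112 to 0.201, with adjusted permutation p values of 0.642 to 0.969. Hdc and Kit had an r of 0.0153 with each other (rho = 0.00659, permutation p = 0.958, adjusted p = 0.969).

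**Figure D4:**
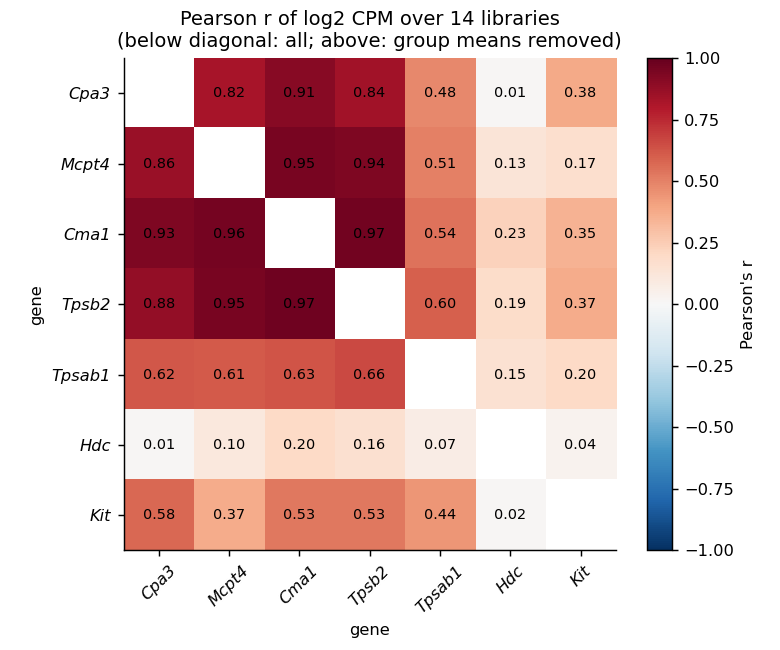
Pearson's r (colour and printed value) between log2 CPM of the 7 detected mast cell genes over 14 libraries, below the diagonal for all libraries and above it with group means subtracted. The block of Cpa3, Mcpt4, Cma1 and Tpsb2 holds the 6 highest values, from 0.86 to 0.973 below the diagonal, and the Hdc row and column are close to 0.

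The ratios between members differed in how far they ranged. Per 100 CPM of Mcpt4, Tpsb2 was at 76.1 to 106 CPM in weight loss, 59.2 to 111 CPM in obese and 74.5 to 122 CPM in lean libraries. Cpa3 per 100 CPM of Mcpt4 was at 34.7 to 65.0 CPM in weight loss, 33.5 to 68.3 CPM in obese and 13.6 to 54.7 CPM in lean libraries. Kit per 100 CPM of the 4 proteases was at 8.05 to 55.6 CPM in weight loss, 16.3 to 40.9 CPM in obese and 17.6 to 67.5 CPM in lean libraries.

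Other mast cell genes were followed in further lists. Among 6 other mast cell proteases, Mcpt1 and Mcpt2 were at 0 in every library, Mcpt9, Cma2 and Ctsg had counts in 2, 2 and 1 libraries, and Tpsg1, the most abundant, was at 0.113 to 0.915 CPM in weight loss, 0.435 to 0.976 CPM in obese and 0.0709 to 1.35 CPM in lean libraries. Tpsg1 was the 1 tested gene of that list and was not called in any comparison. Of 9 genes of mast cell receptors and IgE signalling, 7 were tested and 2 were called in obese against lean mice, both higher, where 5.86% of all genes were called higher and 3.85% lower. Fcer1g, the signalling chain shared by the IgE receptor and other Fc receptors and the most abundant of the list, had a log2 fold change of 0.77 (adjusted p = 0.0242). Syk, the kinase recruited to that chain in many leukocytes, had a log2 fold change of 1.20 (adjusted p = 0.0262). The median log2 fold change of the 7 was 0.74 in obese against lean, -0.14 in weight loss against obese and 0.63 in weight loss against lean, with 0 called in the last 2. Macrophages and other myeloid cells also express Fcer1g and Syk.

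Of 8 genes of mediator synthesis and storage, 7 were tested and 0 were called in any comparison, with median log2 fold changes of 0.44, -0.10 and 0.23 in obese against lean, weight loss against obese and weight loss against lean. The most abundant was Ltc4s, which makes leukotriene C4, with log2 fold changes of 0.47 in obese against lean (adjusted p = 0.146), -0.50 in weight loss against obese (adjusted p = 0.286) and -0.03 in weight loss against lean (adjusted p = 0.972). Tph1, for serotonin synthesis, was at 0 in every library. Of 4 transcription factors, 3 were tested and 0 called, with median log2 fold changes of -0.60 in obese against lean, opposite in sign to the members' median, 0.26 in weight loss against obese and -0.24 in weight loss against lean. Gata2, the most abundant of them and needed for mast cell development, was at 20.0 to 23.1 CPM in weight loss, 14.7 to 21.8 CPM in obese and 20.5 to 53.2 CPM in lean libraries (log2 fold change -0.71 in obese against lean, adjusted p = 0.0669). Of 7 growth factors and attractants, 5 were tested and 0 called in any comparison, with median log2 fold changes of 0.06, 0.29 and 0.36 in the same order, and Cxcl12, a chemokine, was the most abundant. Il9 was at 0 in every library. In bulk fat the cells that carried the RNA of the genes on these lists were not identified, so their values are not shown to be those of mast cells.

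General leukocyte genes were followed beside the proteases. Ptprc, Laptm5 and Coro1a, expressed by leukocytes at large, summed to 131 to 370 CPM in weight loss, 243 to 337 CPM in obese and 134 to 218 CPM in lean libraries, and the obese and lean ranges of the sum did not overlap, as held for 10.3% of single genes. Laptm5 was called higher in obese than lean mice, 1 of the 3 tested, Ptprc (adjusted p = 0.143) and Coro1a (adjusted p = 0.0845) were not, and the median log2 fold change of the 3 was 0.92. The macrophage list had 5 of 6 genes called higher in obese against lean, with a summed level of 382 to 943 CPM in weight loss, 638 to 1030 CPM in obese and 289 to 622 CPM in lean libraries. The mean log2 of the summed CPM of Cpa3, Mcpt4, Cma1 and Tpsb2 differed by 0.95 between obese and lean libraries, and that of its ratio to the summed leukocyte genes by 0.11. On the linear scale the sum averaged 62.0 ± 14 CPM in obese and 39.2 ± 28 CPM in lean libraries (SD, n = 5 each), while the ratio averaged 20.7 ± 2.3 in obese and 22.1 ± 12 in lean libraries per 100 CPM of leukocyte genes, so its direction depends on the scale. Per 100 CPM of the leukocyte genes, the 4 proteases were at 16.8 to 41.7 CPM in weight loss, 17.8 to 23.0 CPM in obese and 7.71 to 37.5 CPM in lean libraries. Their part in the protease values was not tested.

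**Figure D5:**
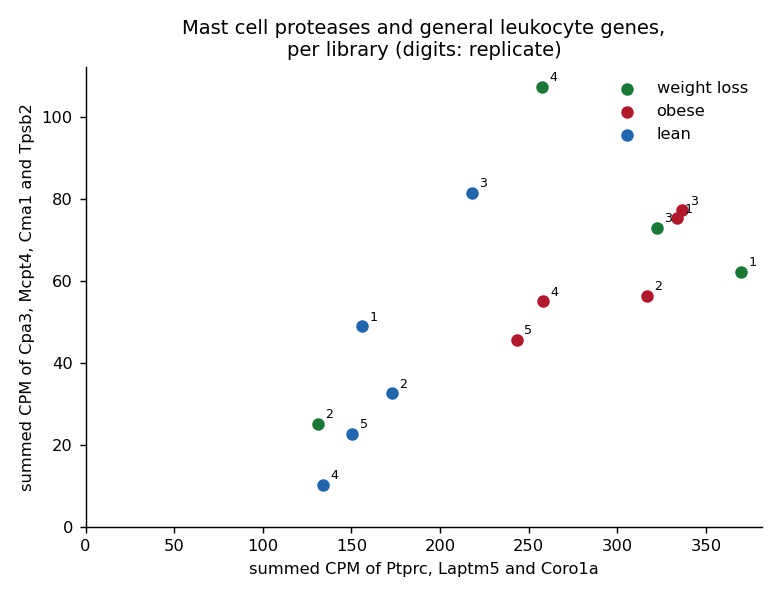
Summed CPM of Cpa3, Mcpt4, Cma1 and Tpsb2 (vertical axis) against summed CPM of the leukocyte genes Ptprc, Laptm5 and Coro1a (horizontal axis) in 4 weight loss, 5 obese and 5 lean libraries. Digits are replicates. The obese libraries lie at 243 to 337 CPM of leukocyte genes and the lean ones at 134 to 218 CPM, and lean replicate 3 and weight loss replicate 4 have more protease RNA than libraries of similar leukocyte level.

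Markers of other cells that can express Hdc or Kit were followed beside them. The basophil list had 2 of 4 genes tested and 0 called, with a summed level of 37.5 to 80.3 CPM in weight loss, 47.1 to 69.5 CPM in obese and 33.1 to 50.9 CPM in lean libraries, nearly all of it Il3ra, which other cells share. Mcpt8, the defining basophil protease, was at 0 in 13 of 14 libraries. Prss34, another protease on that list, passed the filter and was at 0 in only 1 library. It ranged from 0.407 to 1.18 CPM in weight loss, 0.564 to 0.759 CPM in obese and 0 to 1.08 CPM in lean libraries. The melanocyte list had 2 of 4 genes tested and 0 called, with summed levels of 2.44 to 6.57 CPM in weight loss, 2.94 to 5.47 CPM in obese and 5.75 to 8.44 CPM in lean libraries. The T and innate lymphoid list had 5 of 5 tested, with 1 gene called lower in obese against lean and the same number called higher in weight loss against obese (0.736% of all genes were called higher there and 0.881% lower), and summed levels of 26.8 to 81.1 CPM in weight loss, 18.3 to 62.9 CPM in obese and 23.3 to 264 CPM in lean libraries. The parts of basophils, melanocytes and innate lymphoid cells in Hdc and Kit were not tested.

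The genes whose pattern over the 14 libraries was most like the members were found by Pearson's r between log2 CPM and the mean standardised level of the 7 members. The 8 highest that are not members were Marco at 0.902, Pmaip1 at 0.881, Gapt at 0.876, Nkain4 at 0.874, Gmfg at 0.873, Tec at 0.864, Alox5 at 0.857 and Pilrb1 at 0.855. Among the members, each left out of its own mean, Cma1 reached 0.949, Tpsb2 0.932, Cpa3 0.857, Mcpt4 0.853, Tpsab1 0.646, Kit 0.511 and Hdc 0.109. Marco, a scavenger receptor known from macrophages, averaged 7.31 ± 3.2 CPM in weight loss, 7.91 ± 0.90 CPM in obese and 3.89 ± 1.6 CPM in lean libraries (SD, n = 4, 5 and 5), and was not called in any comparison. Alox5, the leukotriene-forming lipoxygenase of mast cells and other myeloid cells, had a log2 fold change of 0.84 in obese against lean (adjusted p = 0.177). The likeness values describe these libraries, which share depth and group, and carry no test.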

How the data were processed

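Poly(A) RNA of perigonadal fat was sequenced in 15 libraries, with genome build mm10 per the submitters' processing notes. The authors deposited 1 table of raw expected counts per Entrez gene ID, in which 34.7% of values were not whole; how reads were aligned and assigned to genes is not given in the sources used here. Symbols came from RefSeq for 32919 of 35794 IDs and from GENCODE M21 for 24. Of 36172 lines, 74 IDs stood on more than 1 line, with counts on at most 1.

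Counts were rounded to whole numbers. Libraries with fewer than 1000000 counts were left out, which removed weight loss replicate 5. The 14 others were fitted together by group with edgeR 4.0.16 in R 4.3.3 (filterByExpr, TMM, glmQLFit, glmQLFTest), with Benjamini-Hochberg adjustment over 15208 genes, a threshold of 0.05 and two-sided tests. CPM used TMM-scaled library sizes, and log2 CPM a prior count of 0.5. Standard errors were taken as |log2 fold change| divided by the root of F, and approximate 95% intervals as normal ones. Correlations used 1e+05 permutations.

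Every member was named in each comparison. Of the other lists on mast cells, called genes and the most abundant gene were named, and of the likeness ranking the 8 highest; other cell types were given by count and summed level, with Mcpt8, Laptm5 and Il3ra named beside them. Fcer1a, Tph1, Il9, Mcpt1, Mcpt2, Mcpt9, Cma2, Ctsg, Prss34, Ptprc and Coro1a, and the changes of Alox5, were also given, chosen after their values were seen. The members and lists were chosen with earlier results of these data known. The script was tested on simulated data. DESeq2 1.42.0, limma-voom (limma 3.58.1), other scalings and filters, a replicate block, epididymis settings and each library left out were tried. Transcript identity, by local alignment in biopython 1.88, stood in for the protein identity first planned. Deviations from the group mean correlated at -0.553 to 0.327 between same-numbered libraries of different groups. Of these correlations, 1 of 5, 1 of 4 and 2 of 4 were over 0.1 in the 3 comparisons. Libraries with different numbers correlated at -0.448 to 0.584. The replicate numbers are thus not shown to pair the libraries, and so few pairs cannot exclude it.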

Additional observations from a re-analysis of the deposited data

Results flagged for a closer look

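Hdc in obese replicate 5 stood apart from its group. It was at 16.1 CPM, and the nearest other obese library was at 9.69 CPM. The gap was 0.925 of the range of the 5 obese libraries, above the Dixon critical value of 0.71. Of 21 sets of libraries examined (7 genes in 3 groups) this was the 1 that stood out, and chance gives about 1 in 20. Obese replicate 5 was also among the libraries richest in epididymis genes, at 6291 CPM, and had no outlying value for the 4 abundant proteases. It was nevertheless the lowest obese library for Cpa3 (4.34 CPM), Mcpt4 (12.9 CPM) and Cma1 (14.0 CPM), though not for Tpsb2. The part of the epididymis genes or of the protease levels in its Hdc level was not tested.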

How the results depend on the processing

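No member was called by edgeR, DESeq2 or limma-voom in any comparison under any setting tried. Of 462 permutation tests of members under other settings, 22 lost and 4 gained an unadjusted p under 0.05 without a change of sign, all in obese against lean. Another gained it with a change of sign: Tpsb2 in weight loss against obese, without weight loss replicate 2 (exact permutation p = 0.0357). Of 543 fold changes of members under other settings, 42 changed sign, all of them in weight loss against obese or in Hdc; no scaling moved the median of all genes by over 0.1. The cause of these shifts was not tested. Genes called in obese against lean, weight loss against obese and weight loss against lean numbered 2260, 691 and 261 with DESeq2, 463, 84 and 0 at an adjusted p of 0.01, and 125, 20 and 0 without the 4 libraries richest in epididymis genes. With the epididymis level as a covariate they numbered 1002, 34 and 0. In weight loss against lean the number was 1 with limma-voom, 0 with only both groups compared and 10 with weight loss replicate 5. Leaving out 1 library gave 849 to 1673, 141 to 265 and 0 to 130 genes in the same order, with 849 without obese replicate 2, 141 without obese replicate 4 or weight loss replicate 3, and 130 when replicate 4 of the weight loss group was omitted.

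With the replicate number as a block, 1618, 172 and 2 genes were called in the same order and 0 members; the log2 fold change in weight loss against obese was -0.30 for Cpa3 and -0.047 for Mcpt4, and that of Hdc in weight loss against lean was 0.32. In weight loss against obese, Cpa3 was at -0.0034 with DESeq2 size factors, -0.022 with the upper quartile, -0.011 without a filter, -0.013 with a filter on CPM (1 or more in 5 or more libraries), -0.0043 with DESeq2 and -0.0017 with weight loss replicate 5. With limma-voom, Mcpt4 was at -0.093 and Tpsb2 at -0.024 there, and Hdc at 0.10 in weight loss against lean. Without the 4 epididymis-rich libraries, Cpa3 was at -0.42, Mcpt4 at -0.33, Cma1 at -0.085 and Kit at 0.066 in weight loss against obese, and Hdc at 0.34 in weight loss against lean. With the covariate, Cpa3 was at -0.36, Mcpt4 at -0.23 and Cma1 at -0.0029 in weight loss against obese, and Hdc at 0.19 in weight loss against lean. In the permutation test without those 4 libraries, the difference of Hdc in obese against lean was 0.0154 (exact permutation p = 1), that of Cma1 in weight loss against obese was -0.27 (exact permutation p = 0.8), and Kit in obese against lean had an exact permutation p of 0.2, where 15 arrangements allow no p under 0.0667. The exact permutation p of Tpsab1 in obese against lean was 0.0556 under DESeq2 size factors, the upper quartile, no filter, the CPM filter and only both groups compared.

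Leaving out 1 library, the log2 fold change in weight loss against obese ran from -0.19 to 0.26 for Cpa3, -0.38 to 0.36 for Mcpt4, -0.15 to 0.47 for Cma1, -0.18 to 0.39 for Tpsb2, -0.025 to 0.58 for Hdc and -0.33 to 0.15 for Kit, and in weight loss against lean from -0.43 to 0.34 for Hdc. The differences of mean log2 CPM ran from -0.28 to 0.35 for Cpa3, -0.48 to 0.34 for Mcpt4, -0.27 to 0.45 for Cma1, -0.29 to 0.36 for Tpsb2, -0.021 to 0.51 for Hdc and -0.38 to 0.13 for Kit in weight loss against obese. For Hdc they ran from -0.51 to 0.17 in obese against lean and -0.23 to 0.47 in weight loss against lean. Permutation tests and summed levels were not run with weight loss replicate 5, whose log values would be those of the prior count. Depth limits Tpsab1, at 4 to 28.8 counts a library.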
